A study of Mus musculus with 5 samples.

Results

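Interferon-stimulated genes, the genes whose transcription rises when a cell senses interferon, were examined in Ksp-Cre/Prdm16fl/fl and Prdm16fl/fl mouse kidneys after unilateral ischemia-reperfusion injury (UIRI). The members were 37 gene names chosen for this known role, with earlier results of these data known. A gene entered where its name was listed in the tables of the 5 mice. Of the 37 names, 35 were found among 35478 genes listed, and Mx1 and Mx2 were not analysed here. RNA-seq was carried out on kidneys of 2 Prdm16fl/fl UIRI mice, labelled mouse 1 and mouse 3, and 3 Ksp-Cre/Prdm16fl/fl UIRI mice, labelled mouse 1, mouse 2 and mouse 3, with 1 library per mouse. All were male mice aged 7 to 8 weeks, and RNA came from the kidney cortex according to the methods. The methods give the strain as C57BL/6J;129, whereas the sample labels give C57BL/6J. The left renal pedicle had been clamped for 35 minutes at 38.5°C, the right kidney was taken out on day 10, and the injured kidney was collected on day 11. Both alleles of Prdm16 were floxed in every mouse, so the groups differed by Ksp-Cre, a Cre recombinase under the promoter of a cadherin of tubular epithelium. Other cell types of the kidney are outside the reach of this promoter, and no uninjured kidney was compared here. The Ksp-Cre/Prdm16fl/fl mice are called knockout mice and the Prdm16fl/fl mice controls in what follows, and values are given in the order of the mouse numbers.

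Type I interferons bind the receptor chains IFNAR1 and IFNAR2, and the kinases JAK1 and TYK2 then phosphorylate STAT proteins, among them STAT2, which join IRF9 to form ISGF3. ISGF3 binds the interferon-stimulated response element (ISRE) of target promoters, whereas IFN-gamma acts through the gamma-activated site (GAS). Tubular, endothelial and immune cells of the kidney can all switch on these genes, and many of the products block viruses or tag proteins with ISG15 or ubiquitin.

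The ISRE letters searched were GAAA followed, after any 2 bases, by GAAA, which read TTTC on the other strand, and windows ran from 250 bases before to 50 bases after each start in RefSeq (GRCm38.p6). A window was given for 28 of the 35 members, and Usp18, Parp9, Parp14, Dhx58, Oas2, Ifi27 and Iigp1 had none. It held the ISRE letters in 15 of the 28 (53.6%), against 3.99% of 27025 genes with a window. All 5 interferon-induced GTPases with a window held them. The GAS letters, TTC and GAA with any 3 bases between them, were in 9 of the 28 (32.1%), against 9.55% of all genes, and in Bst2 they overlapped the ISRE letters. A match is a description of letters and was not tested as a binding site. Stretches are shown as examples for 9 of the members with ISRE letters before the start. These are Isg15, Ifit1, Ifit3 and Oas1a among the effectors and modifiers, the transcription factor Stat2, and 4 GTPases. All are written 5′ to 3′ along the gene, and capitals mark ISRE letters on either strand.
Isg15: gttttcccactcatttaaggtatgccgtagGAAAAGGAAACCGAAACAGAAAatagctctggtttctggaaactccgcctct
Ifit1: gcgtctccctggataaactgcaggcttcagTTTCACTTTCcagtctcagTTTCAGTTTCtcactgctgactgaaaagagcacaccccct
Ifit3: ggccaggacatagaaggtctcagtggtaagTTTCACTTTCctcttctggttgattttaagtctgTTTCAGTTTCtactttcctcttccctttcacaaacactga
Oas1a: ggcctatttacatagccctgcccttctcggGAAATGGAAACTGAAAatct
Stat2: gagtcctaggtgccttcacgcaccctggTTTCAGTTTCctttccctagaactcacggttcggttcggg
Gbp2: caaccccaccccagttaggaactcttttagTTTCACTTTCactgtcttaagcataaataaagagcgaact
Gbp3: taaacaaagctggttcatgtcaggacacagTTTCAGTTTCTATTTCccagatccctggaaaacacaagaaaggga
Irgm1: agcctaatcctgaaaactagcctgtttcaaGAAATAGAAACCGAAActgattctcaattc
Igtp: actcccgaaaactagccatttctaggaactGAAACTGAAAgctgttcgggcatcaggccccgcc
On GRCm38.p6, the stretch of Isg15 is chr4:156200845-156200926 (minus strand), where 3 matches overlap in a single run from base -78 to base -57 before the start. Those of Ifit1 and Ifit3 are chr19:34640755-34640843 and chr19:34583343-34583446, both on the plus strand with 2 separate matches each. The stretch of Oas1a is chr5:120907526-120907575 (minus strand), and that of Stat2 is chr10:128270248-128270315 (plus strand). Among the GTPases, Gbp2 and Gbp3 are at chr3:142620574-142620643 and chr3:142559969-142560043 (plus strand), Irgm1 at chr11:48871421-48871480 (minus strand) and Igtp at chr11:58199492-58199555 (plus strand). Ifih1 and Eif2ak2 carried the letters only after the start.

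The counts summed to between 14939040 and 16425161 per library, and the lowest count of any member in any library was 59. The authors' counts were TMM-scaled in edgeR and are given as counts per 1000000 (CPM), and each gene was tested with edgeR's quasi-likelihood test over 16394 genes, with Benjamini-Hochberg adjustment. Calls needed an adjusted p under 0.05 together with a fold change of 1 or more in size on the log2 scale. Fold changes are given ± standard error. Prdm16 stood at 25.3 and 20.02 CPM in control mice 1 and 3 and at 17.1, 17.0 and 18.0 CPM in the knockout mice (log2 fold change -0.38 ± 0.15, adjusted p = 0.259). It was -0.21 without control mouse 1 and -0.54 without control mouse 3. The floxed part of Prdm16 is an exon and not the whole gene, whereas the reads were counted per gene. Transcripts without this exon can therefore still be counted, as can those of cells outside the reach of Ksp-Cre. These values do not measure how far the floxed exon was deleted, which was not tested. The library of knockout mouse 3 stood apart. Across genes, its log2 CPM correlated at 0.955 and 0.957 with knockout mice 1 and 2, which correlated with each other at 0.991 (genes are not independent replicates). Proximal tubule markers, defining genes of the cortex, summed to between 7294 and 28532 CPM and were abundant in every library. Replicates are separate mice.

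All 35 members passed the filter on low counts, and each was higher in knockout than in control kidneys by fitted log2 fold change, against 54.0% of all genes tested. None was called, higher or lower, where the background of called genes was 0.0793% higher and 0.628% lower. The median over the members was 0.61, from 0.10 for Igtp to 1.52 for Ifit1, and the median over all genes was 0.038. At an unadjusted p under 0.05 there were 11 members, against a background of 7.64% of genes that were higher at this threshold. The smallest adjusted p was 0.113, for Oasl1 (edgeR), and 0.104% of all genes were higher at an adjusted p under 0.05. DESeq2 called 1 member, Oasl1, at an adjusted p of 0.0089, where it called 0.683% of all genes as higher. In 10 of the 35 members, all 3 knockout mice lay above both controls, and 20.3% of all genes tested did so. These were Stat2, Irf1, Irf9, Ifih1, Eif2ak2, Dhx58, Oasl1, Parp9, Gbp7 and Irgm1. No member had all 3 mice below, against 21.3% of all genes.

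The 3 knockout kidneys differed among themselves. In mice 1 and 2, 33 of the 35 members were above both controls, against 32.6% of all genes, and the exceptions were Igtp and Iigp1, which in mouse 1 lay between them. In mouse 3, 21 members were below both controls, against 43.2% of all genes, 4 lay between them (Usp18, Ifi27, Ifi35 and Parp14) and 10 lay above. Mouse 3 was also below both other knockout mice in 33 of the 35, against 43.7% of all genes, with Oasl1 and Irf1 as the exceptions. Relative to the mean of the controls, the median ratio over the members was 1.69 in mouse 1, 1.77 in mouse 2 and 0.794 in mouse 3. The 35 members summed to 1374 and 1537 CPM in control mice 1 and 3, and to 2494, 2640 and 1350 CPM in knockout mice 1, 2 and 3. The sum in mouse 3 was thus the lowest of the 5. In bulk tissue, fewer cells of a type and less RNA per cell cannot be told apart.

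**Figure D1:**
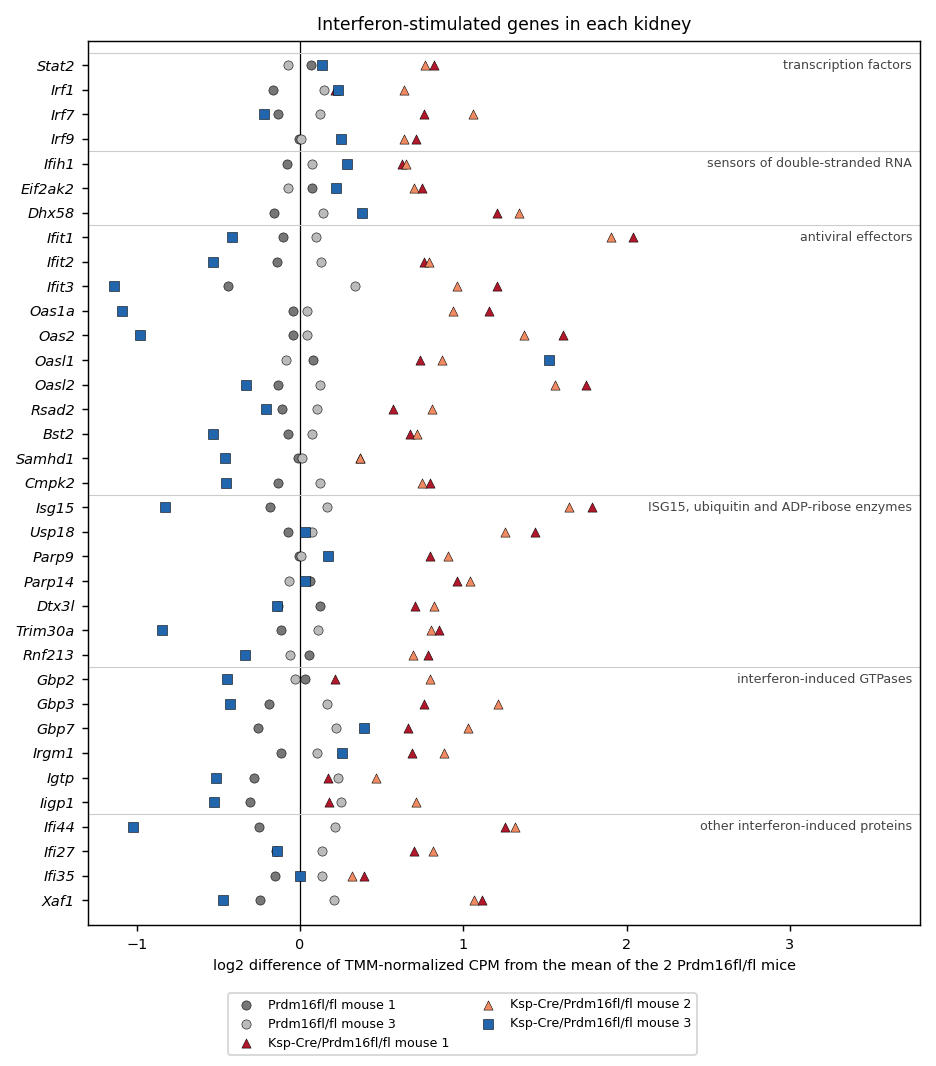
Each symbol is 1 kidney, and the x axis gives its log2 difference in TMM-normalized CPM from the 2-mouse Prdm16fl/fl mean for the 35 members, grouped by role. Circles are Prdm16fl/fl mice 1 and 3, triangles are Ksp-Cre/Prdm16fl/fl mice 1 and 2, and squares are Ksp-Cre/Prdm16fl/fl mouse 3, which is below both Prdm16fl/fl mice in 21 members and highest of all 5 in Oasl1.

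When each mouse was left out in turn, 12 members were called higher without knockout mouse 3, against 1.43% of all genes in that fit, and 0 without any other mouse (edgeR). Without mouse 3, 30 members were higher at an adjusted p under 0.05, as were 7.82% of all genes, and 34 were higher at an unadjusted p under 0.05, as were 16.5% of all genes. The 5 that missed the adjusted threshold were Irf1, Ifi35, Gbp2, Igtp and Iigp1. The 12 were Isg15, Ifit1, Ifit3, Oas1a, Oas2, Oasl2, Usp18, Dhx58, Ifi44, Xaf1, Parp14 and Gbp3. The median log2 fold change of the members was 0.80 without mouse 3 and between 0.47 and 0.66 without one of the others. The fit without mouse 3 compared 2 mice with 2, and it describes those 4 kidneys.

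**Figure D2:**
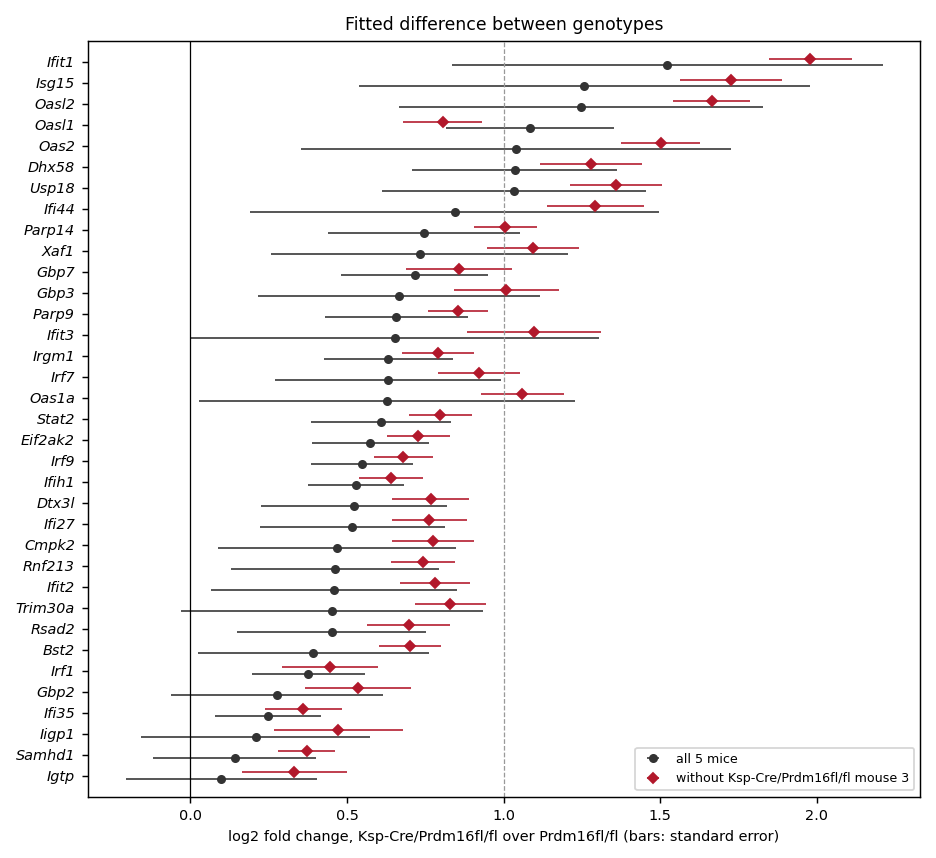
Fitted log2 fold change of each member (x axis, Ksp-Cre/Prdm16fl/fl over Prdm16fl/fl, bars are the standard error) with all 5 mice (circles) and without Ksp-Cre/Prdm16fl/fl mouse 3 (diamonds), ordered by the former. Without mouse 3, Ifit1 moves from 1.52 to 1.98 and Oasl1 from 1.08 to 0.81, and the dashed line marks the fold threshold of 1.

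Transcription factors of the pathway were all higher by fitted value, with a median log2 fold change of 0.58 over 4 members. Irf9, the DNA-binding part of ISGF3, stood at 54.5 and 54.9 CPM in control mice 1 and 3 and at 89.6, 85.2 and 65.1 CPM in knockout mice 1, 2 and 3 (log2 fold change 0.55 ± 0.16, adjusted p = 0.158, edgeR). Stat2, its partner, stood at 52.4 and 47.5 CPM against 88.4, 84.9 and 55.0 CPM (log2 fold change 0.61 ± 0.22, adjusted p = 0.224). In both genes, and in Irf1, all 3 knockout mice lay above both controls, against 20.3% of all genes tested. Mouse 3 was the lowest of the knockout mice in Irf9 and Stat2. Irf7, which drives the transcription of type I interferon genes, stood at 58.9 and 70.2 CPM against 109, 135 and 55.5 CPM, so that mouse 3 was below both controls. Irf1, a factor that IFN-gamma induces, stood at 45.8 and 56.8 CPM against 59.6, 79.7 and 60.3 CPM, the smallest difference of the 4 factors (log2 fold change 0.38 ± 0.18, adjusted p = 0.327).

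Of the roles used here to group the members, the 3 genes listed as sensors of double-stranded RNA all had genotypes that did not overlap. Such genes were 3 of 4 transcription factors, 2 of 6 GTPases and 1 of 11 antiviral effectors, a role that includes Oas1a and Oas2. In the wider list of nucleic acid sensing, 6 of 20 genes had all 3 knockout mice above both controls. Ifih1 encodes MDA5, a cytosolic sensor of long double-stranded RNA. It stood at 33.0 and 36.6 CPM in control mice 1 and 3 and at 53.6, 54.5 and 42.4 CPM in knockout mice 1, 2 and 3 (log2 fold change 0.53 ± 0.15, adjusted p = 0.151). Eif2ak2, the kinase PKR that halts translation, stood at 62.9 and 56.8 CPM against 100.4, 97.2 and 69.6 CPM (log2 fold change 0.57, adjusted p = 0.184). Dhx58, which encodes the helicase LGP2, stood at 6.07 and 7.46 CPM against 15.6, 17.1 and 8.80 CPM (log2 fold change 1.03, adjusted p = 0.177). In each sensor mouse 3 was above the controls and below the other knockout mice, and 20.3% of all genes tested had all 3 knockout mice above both controls.

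Antiviral effectors had a median log2 fold change of 0.63 over 11 genes. It was 0.28, 0.44 and 0.81 without knockout mouse 1, 2 or 3, and 0.34 and 0.67 without control mouse 1 or 3. In 10 of 11 effectors knockout mouse 3 was below both controls, against 43.2% of all genes tested, and the exception was Oasl1. Ifit1, which binds viral RNA, stood at 9.44 and 10.8 CPM in control mice 1 and 3 and at 41.7, 37.9 and 7.60 CPM in knockout mice 1, 2 and 3. Mice 1 and 2 were thus 4.12 and 3.74 times the mean of the controls and mouse 3 was 0.749 times. The fitted log2 fold change of 1.52 had a standard error of 0.69 (adjusted p = 0.303). The related genes Ifit2 and Ifit3 lie beside it on chromosome 19. Ifit2 stood at 41.6 and 50.01 CPM against 77.7, 79.2 and 31.7 CPM. Ifit3 stood at 28.5 and 49.0 CPM against 89.5, 75.5 and 17.6 CPM, with the widest gap between the controls of the 3. Of 100-base stretches of the Ifit3 transcript, 31.7% were also in Ifit3b, so reads may be divided between these copies. Ifit3b, from the list of other interferon-stimulated genes, was named after its values were seen, and stood at 7.48 and 15.6 CPM against 25.8, 23.8 and 4.26 CPM.

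Oligoadenylate synthetases make the second messenger that activates RNase L. Oas2 stood at 17.5 and 18.6 CPM in control mice 1 and 3 and at 55.0, 46.7 and 9.13 CPM in knockout mice 1, 2 and 3 (log2 fold change 1.04 ± 0.69, adjusted p = 0.464). Oas1a stood at 14.6 and 15.5 CPM against 33.6, 28.8 and 7.06 CPM, and 40.9% of its 100-base stretches were shared with Oas1g. Oasl2, an oligoadenylate synthetase-like gene, stood at 31.5 and 37.5 CPM against 116, 102 and 27.4 CPM (log2 fold change 1.25 ± 0.58, adjusted p = 0.317). These 3 genes had the same layout, high in mice 1 and 2 and lowest in mouse 3. Oasl1, which represses translation of Irf7 mRNA, was the member with the opposite layout. It stood at 16.7 and 14.9 CPM against 26.3, 28.9 and 45.5 CPM, with mouse 3 highest (log2 fold change 1.08 ± 0.27, adjusted p = 0.113). Its log2 fold change lay between 0.81 and 1.23 when each mouse was left out.

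Of the remaining effectors, Rsad2, the antiviral enzyme viperin, stood at 19.0 and 22.1 CPM in control mice 1 and 3 and at 30.5, 36.0 and 17.8 CPM in knockout mice 1, 2 and 3. Its neighbour on chromosome 12, the nucleotide kinase gene Cmpk2, stood at 14.4 and 17.1 CPM against 27.3, 26.4 and 11.5 CPM. Bst2, which tethers virions to the cell surface, stood at 39.8 and 44.1 CPM against 67.1, 69.1 and 29.1 CPM. In each of them mice 1 and 2 were above and mouse 3 was below both controls. Samhd1, which degrades deoxynucleotides, stood at 71.1 and 72.2 CPM against 92.5, 92.3 and 52.1 CPM (log2 fold change 0.14 ± 0.26, adjusted p = 0.803).

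Members of the ISG15, ubiquitin and ADP-ribose group had a median log2 fold change of 0.66 over 7 genes. Isg15, the ubiquitin-like protein itself, stood at 6.13 and 7.82 CPM in control mice 1 and 3 and at 24.1, 21.9 and 3.93 CPM in knockout mice 1, 2 and 3. The ratio to the mean of the controls was 3.46 and 3.13 in mice 1 and 2 and 0.563 in mouse 3 (log2 fold change 1.26 ± 0.72, adjusted p = 0.402). Usp18, which removes ISG15 and dampens the type I receptor, stood at 8.22 and 9.11 CPM against 23.6, 20.7 and 8.86 CPM (log2 fold change 1.03, adjusted p = 0.262). The gene model Gm46878 on the opposite strand overlaps 13.0% of the Isg15 exons. Exons of other members overlap genes too, among them Gbp3 (16.85%, Gm40158, opposite strand) and Stat2 (4.9%, Apof, same strand). Mouse 3 lay below the controls for Isg15 and between them for Usp18. Parp9 and Dtx3l, which form a complex and overlap by 334 bp on opposite strands, had log2 fold changes of 0.66 and 0.52, and counting on strand is not stated for these reads. Parp9 stood at 49.4 and 49.7 CPM against 85.9, 92.8 and 55.7 CPM, and Dtx3l at 30.8 and 25.7 CPM against 46.0, 49.97 and 25.6 CPM. Parp14, an ADP-ribosyltransferase, stood at 65.4 and 59.8 CPM against 122, 129 and 64.0 CPM. The RING-domain proteins were lowest in mouse 3: Trim30a stood at 26.4 and 30.9 CPM against 51.6, 49.9 and 15.9 CPM, and Rnf213 at 109 and 101 CPM against 180.5, 169 and 83.1 CPM.

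The interferon-induced GTPases, which act on membranes of vacuoles that hold microbes, had the lowest median of the roles, 0.45 over 6 genes. It was 0.10 without knockout mouse 2 and between 0.40 and 0.66 without one of the others. In all 6, knockout mouse 2 was above mouse 1, against 4 of 11 antiviral effectors and 51.4% of all genes tested. Gbp2 stood at 51.1 and 49.0 CPM in control mice 1 and 3 and at 58.1, 87.0 and 36.6 CPM in knockout mice 1, 2 and 3. Gbp3 stood at 31.0 and 39.8 CPM against 59.8, 82.2 and 26.3 CPM, and Gbp7 at 37.01 and 51.4 CPM against 69.8, 90.1 and 58.0 CPM. Irgm1, the most abundant of the 6, stood at 105 and 122 CPM against 183, 209 and 136 CPM (log2 fold change 0.63 ± 0.21, adjusted p = 0.187). Of 100-base stretches of Gbp7, 10.2% were also in other genes, Gbp3 among them, and of Igtp 5.67% were in Irgm2. For Gbp7 and Irgm1, 2 of the 6, all 3 knockout mice were above both controls, against 20.3% of all genes tested. Igtp stood at 34.9 and 49.8 CPM against 47.7, 58.5 and 29.7 CPM (log2 fold change 0.10 ± 0.31, adjusted p = 0.889), and Iigp1 at 32.1 and 47.4 CPM against 45.02, 64.9 and 27.6 CPM (log2 fold change 0.21). Igtp, the member with the smallest fitted difference, and Ifit1, with the largest, both hold ISRE letters in the stretches printed above. For Gbp2, Igtp and Iigp1 the direction turned when knockout mouse 2 was left out, to log2 fold changes of -0.078, -0.13 and -0.13, and for Igtp and Iigp1 also without control mouse 1, to -0.14 and -0.049.

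Of the remaining members, Ifi44 stood at 12.3 and 16.9 CPM in control mice 1 and 3 and at 34.9, 36.4 and 7.196 CPM in knockout mice 1, 2 and 3. Xaf1, a binding partner of the apoptosis inhibitor XIAP, stood at 19.3 and 26.3 CPM against 49.3, 47.7 and 16.5 CPM. Both genes were high in mice 1 and 2 and lowest in mouse 3. Ifi27 stood at 110 and 134 CPM against 199, 216 and 111 CPM. Ifi35 stood at 27.8 and 33.9 CPM against 40.5, 38.5 and 30.9 CPM, a log2 fold change of 0.25 with a standard error of 0.17.

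Levels between genes were compared in TPM, which divides the count by gene length. As a mean of the 5 mice, Ifi27 was highest, at 289 TPM, followed by Bst2 at 153 TPM, Irgm1 at 136 TPM and Irf7 at 110 TPM. Bst2 ranged from 86.0 to 229 TPM over the mice and Irgm1 from 87.2 to 203 TPM, so their order was within the spread between mice. Dhx58 was lowest, at 11.2 TPM, and the median member was at 30.6 TPM. The members with the largest fold changes were not the most abundant: Ifit1 averaged 20.9 TPM and Isg15 43.1 TPM.

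**Figure D3:**
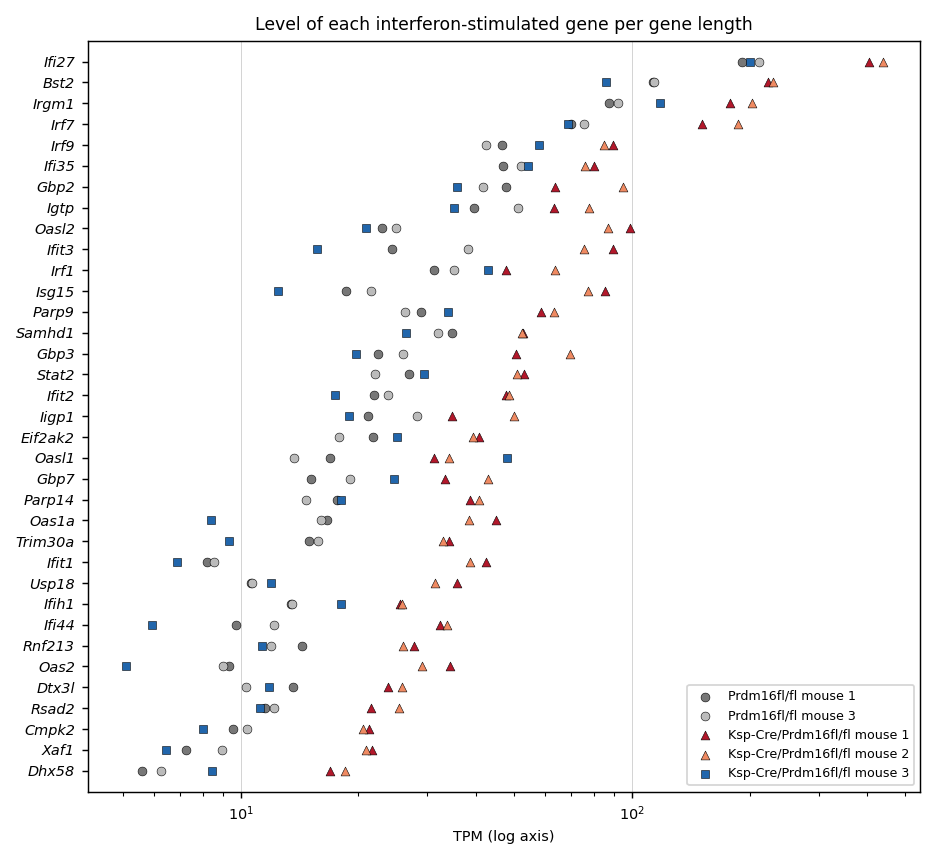
TPM of each member (x axis, log scale) in each of the 5 kidneys, ordered by the mean over the mice. Ifi27 is at the top with a mean of 289 TPM and Dhx58 at the bottom with 11.2 TPM, and symbols mark the mice, with circles for Prdm16fl/fl, triangles for Ksp-Cre/Prdm16fl/fl mice 1 and 2 and squares for mouse 3.

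Genes upstream of the members were read from lists of the pathway. Transcripts of interferons themselves were too few to test. Of 21 interferon genes listed, Ifng had 4 and 6 counts in control mice 1 and 3 and 2, 6 and 2 counts in the knockout mice. Ifna6 had 2 counts in knockout mouse 3, Ifna15 and Ifnab had 1 count in 1 library each, and the other 17, Ifnb1 among them, were at 0 in every library, a difference not detectable at this depth. All 6 receptor chains were higher by fitted value, with a median log2 fold change of 0.26, and 0 were called (edgeR, 2 at an unadjusted p under 0.05). Over all genes, 3090 of 16394 were at an unadjusted p under 0.05 in either direction. Ifngr2, a chain of the IFN-gamma receptor, stood at 53.1 and 53.2 CPM against 78.6, 81.8 and 80.6 CPM (log2 fold change 0.60 ± 0.10, adjusted p = 0.055). Mouse 3 lay between mice 1 and 2, whereas it was below both in 33 of the 35 members. Ifnar1 and Ifnar2, the type I receptor, had log2 fold changes of 0.15 and 0.077, and Ifngr1, Il10rb and Ifnlr1 of 0.37, 0.028 and 0.82.

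Kinases, STATs and their regulators were higher in 10 of 11 genes, with a median log2 fold change of 0.17, and 0 were called (edgeR, 1 at an unadjusted p under 0.05). Stat3, which mainly serves cytokines of the IL-6 family, stood at 191 and 160 CPM in control mice 1 and 3 and at 226, 220 and 305 CPM in knockout mice 1, 2 and 3, so mouse 3 was highest. Jak1, Jak2 and Tyk2 had log2 fold changes of 0.14, 0.14 and 0.17. The feedback inhibitors Socs1 and Socs3 had log2 fold changes of 0.32 and 0.56, and the phosphatases and Pias1 lay between -0.053 (Ptpn6) and 0.26 (Ptpn11). Among 20 genes of nucleic acid sensing, 15 were higher and 0 were called (edgeR, 4 at an unadjusted p under 0.05), with a median of 0.15. The background for both lists was 3090 of 16394 genes at an unadjusted p under 0.05 in either direction. Without knockout mouse 3, 0 were called and 2 had an adjusted p under 0.05 among the kinases, STATs and regulators, and likewise 0 and 2 among the receptor chains (edgeR). Among the sensing genes in that fit, 1 was called higher and 7 had an adjusted p under 0.05 in either direction. Over all genes these counts were 231 and 3053 of 16196. With all mice, the extremes of the sensing genes were Tlr9 and Sting1 at 0.73 and 0.57 and Rnaseh2c and Irf3 at -0.36 and -0.26.

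Interferon-stimulated genes outside the members had a smaller median difference. Members and lists were chosen with earlier results of these data known, so this contrast is a description and was not tested. Of 64 tested, 54 were higher and 0 were called (edgeR), with a median log2 fold change of 0.30. At an unadjusted p under 0.05 in either direction there were 14 of the 64, against 3090 of all 16394 genes (edgeR). Without knockout mouse 3 the median was 0.49, and without 1 of the other mice it lay between 0.20 and 0.36. In the fit without mouse 3, 5 were called higher and 34 had an adjusted p under 0.05 in either direction. Over all genes these counts were 231 and 3053 of 16196. Rtp4, at 15.6 and 18.9 CPM in control mice 1 and 3 and 52.6, 49.5 and 22.6 CPM in the knockout mice, was the highest of them (log2 fold change 1.27, adjusted p = 0.157), followed by Apol9b at 1.03. Lap3 and Samd9l were the lowest, at -0.51 and -0.48. Their medians per mouse relative to the control mean were 0.49 and 0.46 on the log2 scale in mice 1 and 2 and -0.15 in mouse 3, the same layout as the members at 0.76, 0.82 and -0.33.

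Guanylate-binding proteins and immunity-related GTPases outside the members were divided between higher and lower fitted values. Of 13 tested, 6 were higher and 0 were called (edgeR, 0 at an unadjusted p under 0.05), with a median log2 fold change of -0.042. The median turned to 0.31 without knockout mouse 3, to 0.12 without control mouse 3, and to -0.33 without knockout mouse 2. In the fit without knockout mouse 3, 1 was called higher and 4 had an adjusted p under 0.05 in either direction. Over all genes these counts were 231 and 3053 of 16196. The highest were Gvin1 and Ifgga2 at 1.03 and 0.51, and Gbp10 and Gbp2b stood lowest at -0.95 and -1.304. Mouse 3 was below both controls in 12 of the 13, against 43.2% of all genes tested. Chemokines, MHC regulators and immunoproteasome genes induced by IFN-gamma were higher in 7 of 14, with a median of 0.022 and 0 called (edgeR, 0 at an unadjusted p under 0.05). The median was 0.20 without knockout mouse 3, where 0 were called and 0 had an adjusted p under 0.05, and ran from -0.14 to 0.10 without one of the others. Mouse 3 was below both controls in 13 of the 14. They ran from Cxcl9 and Psmb9 at -0.61 and -0.48 to Tapbp and Tap2 at 0.17 and 0.19. In these lists knockout mouse 2 was above mouse 1 in 13 of 13 and 14 of 14 genes, as it was in the 6 GTPases among the members.

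Markers of cell types moved with the members in part, and their part in the result was not tested. Macrophage markers had a median log2 difference from the control mean of 0.50 and 0.42 in knockout mice 1 and 2 and -0.10 in mouse 3, and 10 of 12 were higher by fitted value with 0 called (edgeR, 2 at an unadjusted p under 0.05). At that unadjusted threshold, in either direction, there were 3090 of all 16394 genes. Without knockout mouse 3, 1 was called higher and 7 of 12 had an adjusted p under 0.05 in either direction. Over all genes these counts were 231 and 3053 of 16196. They summed to 1035 and 1429.9 CPM in the controls and to between 842 and 1700.4 CPM in the knockout mice. Adgre1, which encodes F4/80, stood at 12.3 CPM in mouse 3 and between 36.5 and 51.7 CPM in the other 4 mice, whereas Itgam and Cd163 were highest in mouse 3, at 56.3 and 3.20 CPM. The lowest values of lymphoid and dendritic cell markers were in mouse 3, where 43.2% of all genes tested lay below both controls. T cell markers stood at -0.71 there, with 8 of 8 below both controls, and summed to 68.2 and 73.8 CPM in the controls and to between 42.3 and 84.4 CPM in the knockout mice. NK cell markers stood at -1.80 (6 of 7 below both controls), with sums of 22.2 and 24.7 CPM against 6.73 to 22.4 CPM. Dendritic cell markers stood at -1.75 (7 of 8), with sums of 86.5 and 89.7 CPM against 35.6 to 95.4 CPM. B cell markers stood at -1.02 (4 of 5), at sums no higher than 8.04 CPM in any mouse. Ncr1, a defining NK cell gene, had 0 counts in mouse 3 and 1 to 5 counts in the others. Proliferation markers had the layout of the members, at 0.64, 0.28 and -0.14, with 7 of 7 above both controls in mice 1 and 2 and 7 of 7 lowest of the knockout mice in mouse 3. They summed to 209 CPM in each control and to 306, 257 and 180 CPM in the knockout mice. Fibroblast and pericyte markers stood at 0.59, 0.48 and 0.38, and neutrophil markers at 0.46, 1.27 and 0.61. Loop of Henle and distal tubule markers stood at -0.58, -1.10 and -1.57, with 7 of 7 lowest in mouse 3, against 32.0% of all genes tested. Proximal tubule markers stood at -1.01, -1.05 and -1.71, with 6 of 10 lowest in mouse 3, although their summed level was highest in mouse 3 among the knockout mice (7294, 9296 and 11874 CPM, against 22485 and 28532 CPM in the controls). Of these 10 markers, 1 was called lower (edgeR), against 0.628% of all genes tested. All 3 knockout mice were below both controls in 9 of the 10, against 21.3% of all genes. Collecting duct markers stood at -0.34, -0.92 and -0.93 and podocyte markers at -0.59, -0.60 and -0.46, and tubular injury markers at 0.97, 0.94 and 1.22. Endothelial markers stood at 0.084, -0.090 and 0.22. Erythroid markers summed to 6.67 and 10.8 CPM in the controls and to 151, 150 and 40.5 CPM in knockout mice 1, 2 and 3. Their medians stood at 4.35, 4.29 and 2.49, with 0 called (edgeR). All 3 knockout mice were above both controls in 5 of 5, against 20.3% of all genes tested. Mouse 3 was the lowest of the knockout mice in 5 of 5, against 43.7% of all genes.

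**Figure D4:**
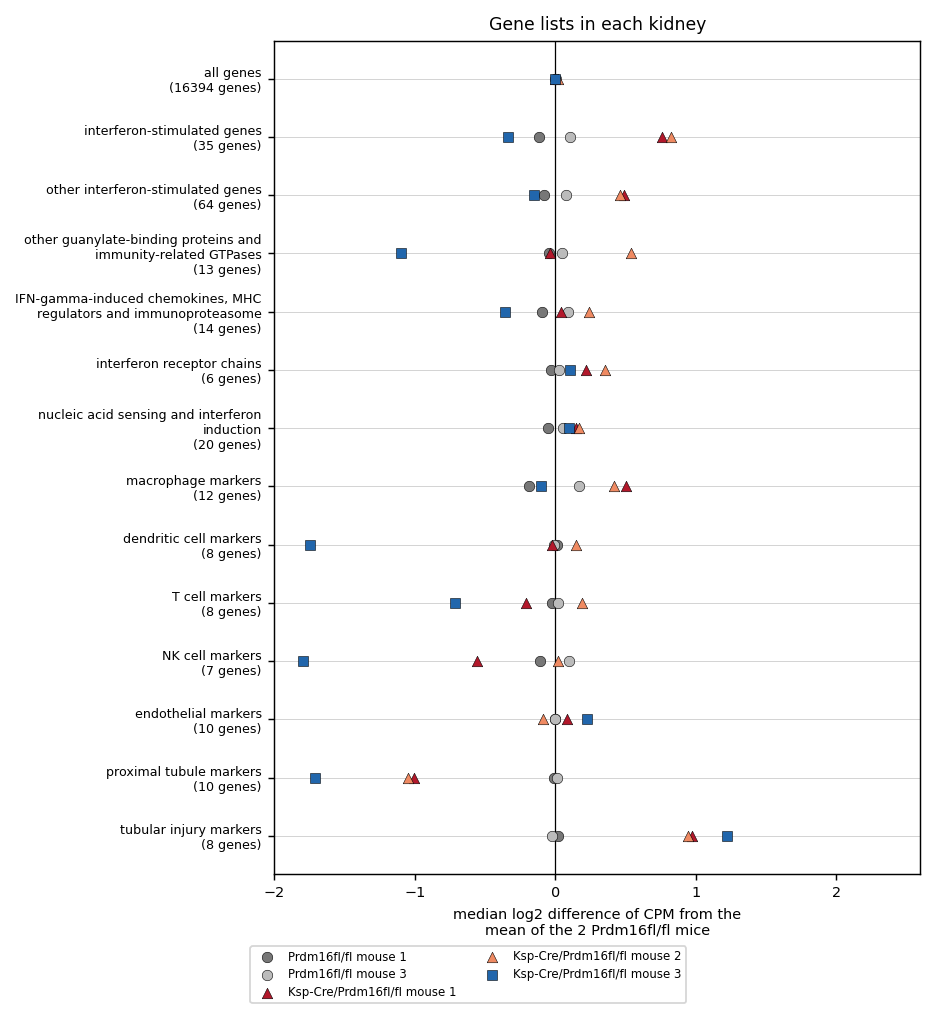
Median log2 difference in CPM from the 2-mouse Prdm16fl/fl mean (x axis) for gene lists (rows, with the number of genes tested), 1 symbol per kidney. Triangles are Ksp-Cre/Prdm16fl/fl mice 1 and 2, where the members stand at 0.76 and 0.82, and squares are mouse 3, where they stand at -0.33, and dendritic cell and NK cell markers reach -1.75 and -1.80 in mouse 3.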

How the data were processed

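Mouse kidney RNA-seq of 5 libraries was analysed, grouped by genotype from the sample labels. The authors deposited the raw count of reads per gene, and beside it TPM and FPKM, which scale that count by gene length and library total. Recomputing both from the counts gave the deposited values up to rounding. The submitters' processing notes name CASAVA, featureCounts 2.0.1 and DESeq2 1.16.1, and a human genome build. The build of the coordinates, the aligner, the annotation and the strand setting are not given in the sources used here, so overlapping genes and close copies are uncertain. Lines of 5 genes were broken and were rejoined, and mitochondrial genes were not analysed here. The methods describe reads of 150 bp on an MGI platform, and the labels a kit for Illumina sequencers.

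Counts were filtered with filterByExpr of edgeR 4.0.16 (16394 genes kept), scaled with TMM and tested by quasi-likelihood with no covariate (R 4.3.3). CPM is per 1000000 TMM-scaled counts. Fold changes are Ksp-Cre/Prdm16fl/fl over Prdm16fl/fl. Total counts ran from 14939040 to 16425161. Alternatives were DESeq2 1.42.0, other scalings and filters, fits without each mouse, a block for the mouse number, limma 3.58.1 on the log2 of FPKM plus 1 or plus 0.1 where FPKM reached 1 in 2 libraries, removal of a gene length trend, and an adjusted p alone. The fits were first tested on simulated data with 200 changed genes. Python 3.11.15, pandas 2.3.3 and matplotlib 3.10.9 were used for tables and plots.

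The genes named are the 37 members, Prdm16, the interferon ligands, receptor chains and the list of kinases and STATs, and of each other list the 2 highest, the 2 lowest and any called gene. Some genes that the rule allows are left out. Ifit3b, Oas1g and Ncr1 were named after seeing their values. The members and lists were chosen with earlier results of these data known, so their direction is no independent support. Shared sequence was measured as 100-base stretches of each transcript found in other genes of GENCODE M21.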

Additional observations from a re-analysis of the deposited data

How the results depend on the processing

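All 35 members kept the direction of their fitted difference under DESeq2, other scalings (library size, upper quartile, DESeq2 size factors), both filters, limma on FPKM and removal of the gene length trend. Of 525 member values over 15 alternatives, 9 changed sign and 13 passed the call. With the mouse number as a replicate block, Gbp2, Igtp, Iigp1 and Samhd1 turned to -0.12, -0.15, -0.14 and -0.042. Igtp lay between -0.14 and 0.38, Iigp1 between -0.13 and 0.51, and Gbp2 between -0.078 and 0.54 when each mouse was left out. The cause was not tested.

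The members' median lay between 0.29 (block) and 0.80 (without Ksp-Cre/Prdm16fl/fl mouse 3). Members called higher were 0, 1 with DESeq2, and 0 to 12 when each mouse was left out, where a lone Prdm16fl/fl mouse was assumed to vary like the others. Of all genes, 13 were called higher, 112 with DESeq2, 37 without a filter, 0 with the block and 0 to 231 with each mouse left out. Called lower were 103, 381 with DESeq2, 250 without a filter, 34 by library size, 41 with limma on log2(FPKM + 1), 30 on log2(FPKM + 0.1), 58 without the length trend, 0 with the block and 0 to 502 with each mouse left out. Scaling by library size moved the median of all genes from 0.038 to 0.149 and that of the members to 0.73.

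The genotypes share the mouse numbers 1 and 3, and the labels do not say that a number marks a litter or day. Deviations from the group means correlated at -0.0021 and -0.022 in these pairs. With 2 controls, the deviations of control mice 1 and 3 are mirror images (correlation -1). Those of knockout mouse 3 ran against knockout mice 1 and 2 (-0.84 and -0.82). These correlations therefore do not decide what a shared number means, and pairing by litter or day was not tested. The p-values set the genotype difference against the variation within the groups, which is estimated partly across genes. With 2 and 3 mice per group, and mouse 3 far from its group, they rest on these 5 mice alone.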
